A study of Mus musculus with 6 samples.

Results

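Condensin subunit transcripts were measured in the livers of mice that lack Atp7b, the copper-transporting ATPase lost in Wilson disease, and of wild type mice. The members are the 8 genes whose Ensembl identifiers map to the subunits of condensin I and condensin II, out of 41388 identifiers in the count table. Both groups were of the C57BL x 129S6/SvEv background and 6 weeks old, and both ate a diet with 16 ppm copper, 100 ppm zinc and 235 ppm iron. One group was wild type and the other carried the Atp7b-/- genotype, with 3 liver libraries in each and no treatment named. The sources used here do not say which part of Atp7b was deleted, nor whether an RNA sample came from 1 animal or several. Total counts ran from 5919389 to 25973968 per library. Values are listed below in the order of replicates 1, 2 and 3 of each genotype.

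Condensins are ring-shaped complexes of 2 SMC ATPases, a kleisin that closes the ring and a pair of HEAT-repeat subunits, and they compact chromosomes for mitosis. Smc2 and Smc4 serve both complexes. Ncaph (the kleisin), Ncapg and Ncapd2 belong to condensin I, which reaches the chromosomes after the nuclear envelope has broken down. Ncaph2 (the kleisin), Ncapg2 and Ncapd3 belong to condensin II, which is nuclear throughout the cell cycle. Adult hepatocytes divide rarely, and many are polyploid.

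Promoter sequences were at hand from RefSeq (build GRCm38.p6) for 7 of the 8 subunits, Smc4 being the other, as windows from 250 bases before to 50 bases after the start site. The 4 windows printed here are those of 3 subunits whose transcripts rose in Atp7b-/- livers (Smc2, Ncapg, Ncapg2) and of Ncapd2, which was not called although its window held all 3 motifs searched; this choice was made after the matches were seen. Capitals mark the matches on either strand: the CCAAT box (CCAAT), the cell cycle homology region or CHR (TTTGAA or TTCGAA), and the E2F site (TTTCCCGC, TTTCGCGC, TTTGCCGC or TTTGGCGC), with no overlap between matches. Each is read 5′ to 3′ on the gene's strand.
Smc2 (chr4:52438971-52439270, plus strand): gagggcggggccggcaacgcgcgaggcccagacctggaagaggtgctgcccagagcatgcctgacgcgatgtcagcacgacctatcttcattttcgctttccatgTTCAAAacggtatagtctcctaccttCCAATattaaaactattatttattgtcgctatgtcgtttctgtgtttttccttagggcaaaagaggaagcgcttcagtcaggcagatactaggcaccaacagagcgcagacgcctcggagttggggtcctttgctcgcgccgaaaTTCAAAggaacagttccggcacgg
Ncapg (chr5:45669675-45669974, plus strand): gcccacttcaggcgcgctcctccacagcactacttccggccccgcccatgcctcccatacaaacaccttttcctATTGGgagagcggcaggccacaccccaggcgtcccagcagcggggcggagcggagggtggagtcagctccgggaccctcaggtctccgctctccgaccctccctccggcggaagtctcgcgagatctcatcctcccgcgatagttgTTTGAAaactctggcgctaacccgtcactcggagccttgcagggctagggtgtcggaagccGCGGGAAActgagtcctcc
Ncapg2 (chr12:116405186-116405485, plus strand): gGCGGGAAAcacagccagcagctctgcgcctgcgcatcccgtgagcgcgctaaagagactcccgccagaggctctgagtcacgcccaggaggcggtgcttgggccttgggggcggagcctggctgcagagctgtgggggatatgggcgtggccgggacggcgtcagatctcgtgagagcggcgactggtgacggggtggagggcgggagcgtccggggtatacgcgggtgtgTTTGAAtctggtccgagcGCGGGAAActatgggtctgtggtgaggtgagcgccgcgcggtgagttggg
Ncapd2 (chr6:125191537-125191836, minus strand): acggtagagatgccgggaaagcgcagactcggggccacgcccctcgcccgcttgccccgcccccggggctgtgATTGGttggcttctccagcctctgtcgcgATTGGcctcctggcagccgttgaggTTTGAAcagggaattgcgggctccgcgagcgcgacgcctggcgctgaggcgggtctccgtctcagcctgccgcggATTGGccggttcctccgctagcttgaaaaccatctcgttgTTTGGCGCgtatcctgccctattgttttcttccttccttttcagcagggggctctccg

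CHR matches were in 5 of the 7 windows (Smc2, Ncapg, Ncapd2, Ncapg2 and Ncaph2) and in 19.2% of 32851 mouse promoter windows of the same length. The CHR is the element through which the DREAM and MuvB complexes hold cell cycle genes off in resting cells. In Ncapg the match began 30 bases before the start site, in Ncapg2 18 bases before it and in Ncaph2, as TTCGAA, 22 bases before it. E2F matches were in 3 windows, those of Ncapg, Ncapg2 and Ncapd2, against 2.26% of all windows. CCAAT boxes, the element bound by NF-Y, were in the 3 windows of Smc2, Ncapg and Ncapd2, against 37.4% of all. The windows of Ncaph and Ncapd3 held none of these letters. The motifs did not sort the subunits by their change: Ncaph rose without a match, Ncaph2 was not called with one, and Ncapd2, with 3 CCAAT boxes, was not called. The RefSeq start of Ncapd2 lies 115 bases from the GENCODE start, and those of the other 6 lie at most 34 bases away.

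**Figure D1:**
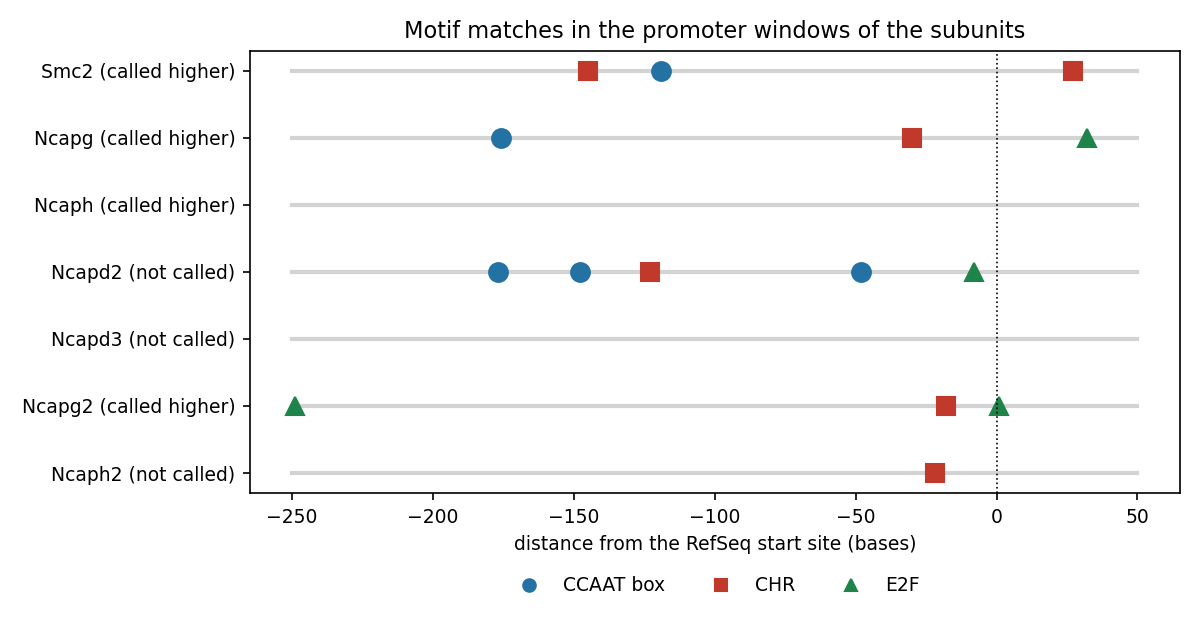
Motif matches in the promoter windows of 7 condensin subunits, plotted by distance from the RefSeq start site in bases; circles are CCAAT boxes, squares CHR matches and triangles E2F matches, and the grey lines span the windows from 250 bases before to 50 after the start. Ncapd2 carries 5 matches without a call, while Ncaph has none and was called higher.

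The libraries differ by more than genotype. Wild type replicate 1 and Atp7b-/- replicate 3 are paired-end and the other 4 single-end, all with reads of 54 bases, and 52.8% of the 12988 genes tested differed between the layouts. Among the subunits 5 of 8 did, all 5 higher in paired-end libraries: Smc2, Smc4, Ncapg, Ncapd3 and Ncapg2. Layout was therefore a term of the test. The labels of sex follow the genotype within each layout, in opposite directions, so labelled sex and genotype cannot be told apart there. The transcripts did not always fit the labels. Atp7b-/- replicate 3, labelled female, had 0.482 CPM (counts scaled to library size with TMM factors) of Xist, the RNA of the silenced X chromosome, and 126 CPM of the Y-linked gene Ddx3y. Wild type replicate 3, also labelled female, had 17.4 CPM of Xist and 28 CPM of Ddx3y, while wild type replicate 2 had 371 and 0.34 CPM. Both paired-end libraries were thus low in Xist, at 1.01 and 0.482 CPM, and high in Ddx3y, at 161 and 126 CPM. Atp7b-/- replicates 1 and 2, labelled male, had 0.12 and 0.7 CPM of Xist and 29.5 and 37.7 CPM of Ddx3y. Only the single-end wild type libraries had more than 1.01 CPM of Xist, so Xist level and genotype cannot be told apart in that layout. Atp7b itself stood at 25.3, 85.2 and 59.7 CPM in wild type and at 19.2, 13.8 and 13.3 CPM in the Atp7b-/- ones, so the genotypes did not overlap.

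Transcripts of 5 of the 8 subunits rose in Atp7b-/- livers: both SMC ATPases, 2 of the 3 condensin I subunits (Ncapg and Ncaph) and 1 of the 3 condensin II subunits (Ncapg2). Ncapd2, Ncapd3 and Ncaph2 did not pass the test. Across all genes tested, 1.9% were called higher and 0.585% lower by the same rule, an adjusted p under 0.05 in the quasi-likelihood test of edgeR after Benjamini-Hochberg adjustment. The median log2 fold change was 2.04 over the 8 subunits and -0.01 over all genes. In 6 of the 8 subunits the CPM of every Atp7b-/- library was above that of every wild type library, as in 5.23% of all genes. All 8 passed the filter on low counts, but Ncapg did so through the Atp7b-/- libraries alone, so that it could only appear as higher. In bulk liver, more cells that hold a transcript and more of it per cell cannot be told apart.

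Smc2 (ENSMUSG00000028312, chromosome 4, 52439243 to 52488260, plus strand, GRCm38) encodes an ATPase of both condensins. Its level was 6.99, 3.91 and 3.71 CPM in wild type and 18, 18.8 and 46.7 CPM in Atp7b-/- livers. The lowest Atp7b-/- library was above the highest wild type one, and in each genotype the paired-end library was the highest. Smc2 rose 5.45-fold, from a mean of 4.87 ± 1.84 to 27.8 ± 16.3 CPM (SD, n = 3 each), a log2 fold change of 2.45 with an SE of 0.22 (adjusted p = 0.000951).

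Smc4 (ENSMUSG00000034349, chromosome 3, 69004738 to 69034623, plus strand), its partner ATPase, had 27.4, 7.22 and 8.16 CPM in wild type and 30.3, 34.4 and 84.8 CPM in Atp7b-/- livers. The groups did not overlap, but the paired-end wild type library came close to the single-end Atp7b-/- ones. Smc4 rose 3.76-fold (log2 1.91, SE 0.20, adjusted p = 0.00166), the smallest of the 5 rises. The microRNA genes Mir15b and Mir16-2 lie in an intron of Smc4, and none of their annotated bases is on its exons. The sizes with layout in the fit were like those within each layout: 1.62 between the 2 paired-end libraries and 2.05 between the single-end ones for Smc4, and 2.72 and 2.24 for Smc2, on the log2 CPM scale with a prior count of 2.

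Among the subunits of condensin I alone, Ncapg (ENSMUSG00000015880, chromosome 5, 45669919 to 45700546, plus strand) changed most. This HEAT-repeat subunit had 8, 2 and 0 counts in wild type and 67, 41 and 563 counts in Atp7b-/- livers. Scaled, that was 0.366, 0.17 and 0 CPM against 3.91, 5.75 and 19.4 CPM. The transcript was thus near the limit of detection in wild type liver, where 3 counts correspond to 0.137 to 0.556 CPM, and present in every Atp7b-/- library. Ncapg rose 47.2-fold (log2 5.56, SE 0.49, adjusted p = 0.000951), with a 95% interval of 21.8- to 102-fold from the fit. The ratio of the summed counts, 671 against 10, was 49.1 with an exact counting interval of 26.6 to 103, which covers counting error only. Exons of Lcorl on the opposite strand share 13.4% of the annotated exon bases of Ncapg. For Lcorl the log2 fold change was 0.14 (adjusted p = 0.888).

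Ncaph (ENSMUSG00000034906, chromosome 2, 127103809 to 127133954, minus strand), the kleisin of condensin I, had values that varied little within a genotype. It stood at 1.14, 0.85 and 0.927 CPM in wild type and at 8.57, 6.45 and 11.9 CPM in Atp7b-/- livers. The genotypes were well apart in both layouts. Ncaph rose 9.29-fold, from 0.973 ± 0.152 to 8.99 ± 2.77 CPM, a log2 fold change of 3.22 with an SE of 0.33 (adjusted p = 0.00139), and no other subunit had so small an SD for its mean in wild type except Ncaph2.

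Ncapd2 (ENSMUSG00000038252, chromosome 6, 125168007 to 125191701, minus strand), the other HEAT-repeat subunit of condensin I, stood apart from Ncapg and Ncaph. Its values were 4.21, 7.56 and 4.82 CPM in wild type and 8.74, 12.6 and 8.27 CPM in Atp7b-/- livers. Every Atp7b-/- library was above every wild type one, by as little as 8.27 against 7.56 CPM. The log2 fold change of 0.83 (SE 0.29, 95% interval 0.18 to 1.48) had an unadjusted p of 0.0183 and did not pass over all genes (adjusted p = 0.22). The small RNA gene Scarna10 lies on 3.78% of its exon bases.

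Of the subunits of condensin II alone, Ncapg2 (ENSMUSG00000042029, chromosome 12, 116405402 to 116463731, plus strand), the counterpart of Ncapg, rose. Its level was 3.43, 2.29 and 1.3 CPM in wild type and 8.22, 9.4 and 14.5 CPM in Atp7b-/- livers. The groups were separate, and as for Smc2 the paired-end library was the highest of each. Ncapg2 rose 4.47-fold (log2 2.16, SE 0.30, adjusted p = 0.00624). That call was lost without wild type replicate 1 (adjusted p = 0.0583) or Atp7b-/- replicate 3 (adjusted p = 0.0776), which are the paired-end libraries, at a log2 fold change of 2.21 and 2.23.

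The other two condensin II subunits had fold changes below 1 that did not pass the test. Ncapd3 (ENSMUSG00000035024, chromosome 9, 27030175 to 27095315, plus strand), a HEAT-repeat subunit, had 19.8, 10.2 and 6.86 CPM in wild type and 8.16, 8.28 and 11.5 CPM in Atp7b-/- livers. The groups overlapped, and the highest library was the paired-end wild type one. The log2 fold change was -0.33 (SE 0.27, 95% interval -0.93 to 0.27, adjusted p = 0.64), an interval that leaves out a rise of the size seen for Ncapg2, whose own interval began at 1.48.

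Ncaph2 (ENSMUSG00000008690, chromosome 15, 89355719 to 89372826, plus strand), the kleisin of condensin II, had 44.3, 47.1 and 52.6 CPM in wild type and 47.2, 43.2 and 30.6 CPM in Atp7b-/- livers. Here too the groups overlapped, and Atp7b-/- replicate 3, the highest library for Smc2, Smc4, Ncapg, Ncaph and Ncapg2, was the lowest. The log2 fold change was -0.27 (SE 0.19, 95% interval -0.69 to 0.15, adjusted p = 0.558). Ncaph2 shares 19.7% of its exon bases with Sco2 and 12.7% with Tymp on the opposite strand. Sco2 is listed at 0 in all 6 libraries, and for Tymp the log2 fold change was 0.16 (adjusted p = 0.838). The sources used here do not say how reads on shared bases were counted.

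**Figure D2:**
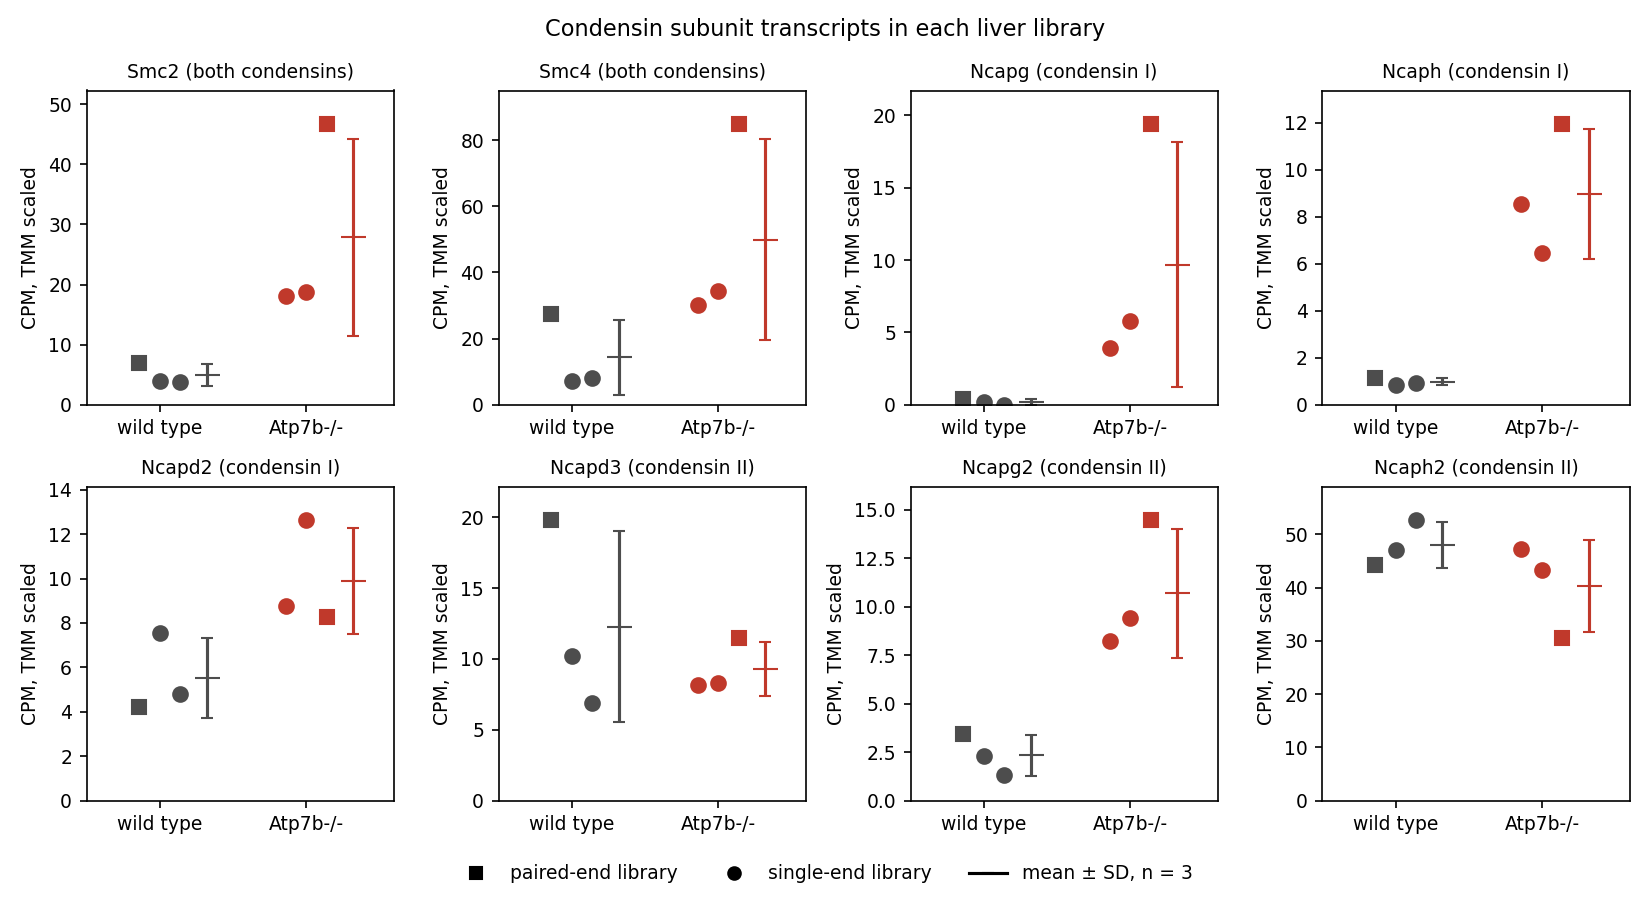
CPM of each condensin subunit (vertical axes, from 0, each with its own scale) in the 3 wild type and 3 Atp7b-/- libraries; squares are paired-end and circles single-end libraries, and the bars beside them are mean ± SD. Ncapg goes from at most 0.366 CPM to at least 3.91 CPM, while the groups of Ncapd3 and Ncaph2 overlap.

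The change with genotype was also measured within the layouts. In the paired-end pair and in the single-end libraries alike, 6 of the 8 subunits were higher in Atp7b-/- livers and Ncapd3 and Ncaph2 were lower. The share of all genes higher in both layouts was not computed. In the fit on all 6 libraries 49.1% of genes had a positive log2 fold change. That fit uses the same libraries, so the agreement of the layouts is no separate support for its calls. For Ncapg the differences were 5.30 and 4.63 on the log2 CPM scale, for Ncaph 3.25 and 2.90, for Ncapg2 2.04 and 2.26, and for Ncapd2 0.95 and 0.79. Ncapd3 differed by -0.78 in the paired-end pair and by -0.03 in the single-end libraries. A test of whether the genotype change differed between layouts called none of the 8 in edgeR (unadjusted p from 0.212 to 0.829, so none under 0.05 either), against 0.0154% of all genes. This test equals one of labelled sex beside layout and genotype, and has few residual degrees of freedom. With the single-end libraries alone, 4 subunits were called higher, where 0.844% of 12205 genes were: Smc2 and Smc4 (adjusted p = 0.0261 each), Ncaph (adjusted p = 0.0319) and Ncapg (adjusted p = 0.0336), while Ncapg2 had an adjusted p of 0.0662. Those 4 kept their call when any 1 of the 6 libraries was left out, with adjusted p of at most 0.0424. Leaving out wild type replicate 1 or Atp7b-/- replicate 3 leaves the genotype change to the single-end libraries. For Smc2 the log2 fold change was then 2.27 and 2.28, against 2.27 in the single-end libraries alone. Those leave-outs are therefore no separate check. No subunit was called when layout was left out of the fit (5 had an unadjusted p under 0.05) or replaced by labelled sex (4 had), although the log2 fold changes without layout were 2.50 for Smc2 and 5.41 for Ncapg.

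**Figure D3:**
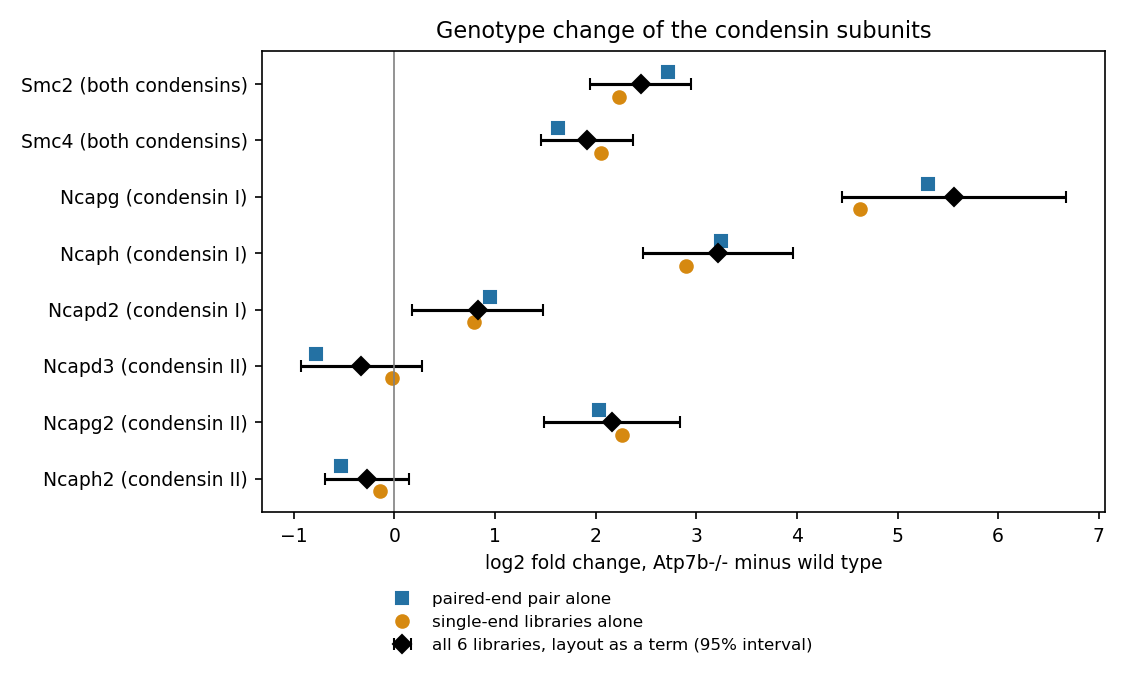
Log2 fold change of each subunit, Atp7b-/- minus wild type (horizontal axis); diamonds with 95% intervals are from the fit on all 6 libraries, squares the difference of the paired-end pair and circles that of the single-end libraries. The intervals of Ncapd3 and Ncaph2 span 0, and the 2 layouts give the same sign for every subunit.

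Per kilobase of annotated exon, which allows levels of different genes to be compared, the order of the subunits was not the same in the 2 genotypes. In wild type livers Ncaph2 was the most abundant, at 11.4 ± 1.01 CPM per kilobase, followed by Smc4 (2.74 ± 2.19), Ncapd3 (1.56 ± 0.851), Smc2 (0.889 ± 0.336) and Ncapd2 (0.882 ± 0.285). Ncapg2 (0.235 ± 0.107) and Ncaph (0.226 ± 0.0352) were within an SD of each other, as were the 4 from Smc4 to Ncapd2 with their neighbours, and Ncapg was last (0.0253 ± 0.0259). In Atp7b-/- livers Ncaph2 (9.6 ± 2.06) and Smc4 (9.56 ± 5.83) were level. Smc2 (5.08 ± 2.98) and Ncaph (2.09 ± 0.644) came next, and Ncapd2 (1.58 ± 0.382), Ncapg (1.37 ± 1.2), Ncapd3 (1.18 ± 0.24) and Ncapg2 (1.08 ± 0.334) lay within their spread of one another. Transcripts of the kleisin of condensin II thus outnumbered those of the condensin I kleisin in every library, and the gap was narrower in Atp7b-/- livers. Ncaph stood at 0.0252, 0.0176 and 0.0172 of the Ncaph2 level in wild type and at 0.177, 0.146 and 0.381 of it in Atp7b-/- livers.

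The balance between the complexes moved in the same way for the HEAT-repeat pair Ncapg and Ncapg2. The ratio of their per-kilobase levels was 0.15, 0.104 and 0 in wild type and 0.668, 0.861 and 1.89 in Atp7b-/- livers, so the groups did not overlap. For the other HEAT-repeat pair, Ncapd2 over Ncapd3, the ratios were 0.268, 0.934 and 0.885 in wild type and 1.35, 1.92 and 0.905 in Atp7b-/- livers, and these groups overlapped. Subunits found only in condensin I made up 6.87%, 10.1% and 6.78% of the summed per-kilobase level of those found in 1 complex only in wild type, and 23.1%, 26% and 40.1% in Atp7b-/- livers. The sum of the condensin II subunits was 12.7 to 13.5 CPM per kilobase in wild type and 10.2 to 13.1 in Atp7b-/- libraries, most of it Ncaph2. The sum of the condensin I subunits was 0.984 to 1.43 against 3.94 to 6.84. For the 2 SMC genes, Smc2 over Smc4 was 0.243 to 0.515 in wild type and 0.52 to 0.566 in Atp7b-/- libraries. These groups did not overlap, by as little as 0.515 against 0.52. These ratios are descriptions with no test, and they use the union of annotated exons as length.

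**Figure D4:**
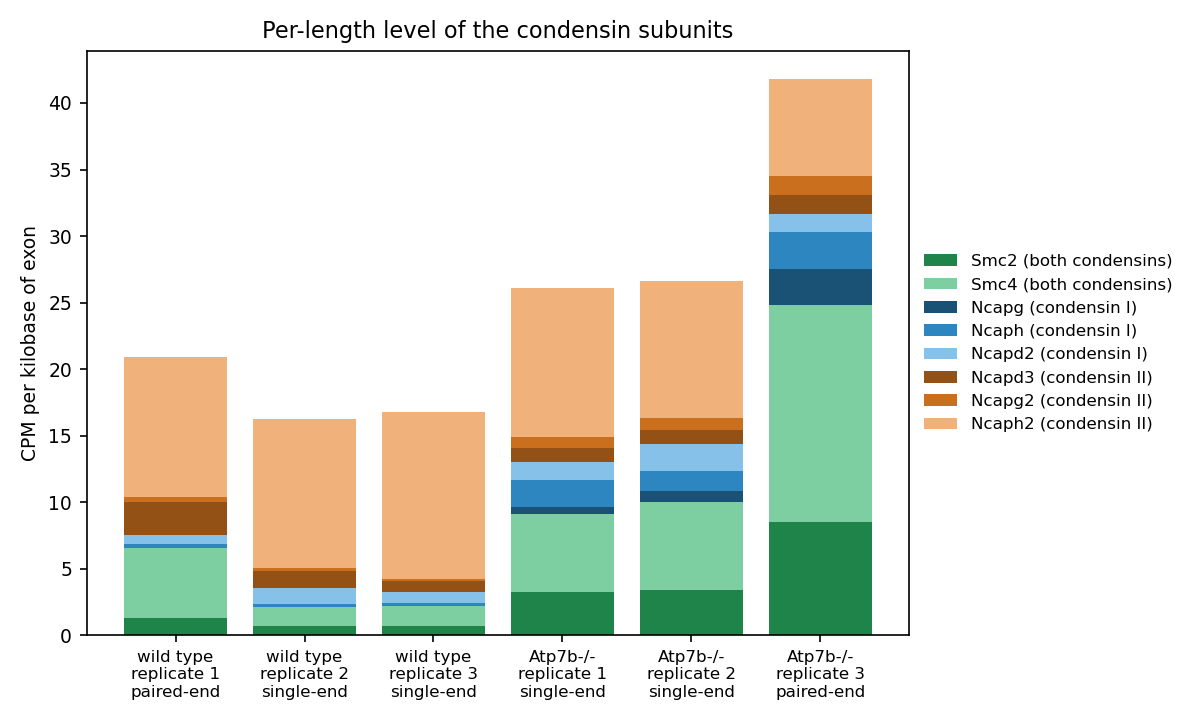
Stacked per-length levels of the 8 subunits (CPM per kilobase of exon, vertical axis) in each library; green marks the SMC genes of both condensins, blue the condensin I and brown to orange the condensin II subunits. The blue part grows from at most 1.43 in wild type to at least 3.94 in Atp7b-/- libraries, while Ncaph2 is the broadest band in every wild type library.

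The genes around condensin were described with 5 lists, holding 46 genes of which 43 passed the filter. In all, 15 of the 43 rose and none fell, against 1.9% called higher and 0.585% lower over all genes. In each of the 15 the lowest Atp7b-/- library was above the highest wild type one, as in 5.23% of all genes. The 15 were picked by their call in the same libraries, so these separate ranges are no further support. Of these 15, 6 had no wild type library over the CPM of the filter, so they too could only appear as higher. The filter asks for 3 libraries. Esco2, Aurkb, Kif22 and Nusap1 had 1 such wild type library, and Pttg1, Cdk1, Plk1 and Top2a had 2. These too needed Atp7b-/- libraries to pass, so the filter favoured a rise in them. Only Mcph1 had 3. The count of called genes was 6 without wild type replicate 1, and also 6 without Atp7b-/- replicate 3.

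Cohesin is the SMC ring that holds sister chromatids together. Of its 8 genes 6 were tested, and 1 rose. The somatic core subunits Smc1a and Rad21 had log2 fold changes of -0.46 (adjusted p = 0.311) and 0.46 (adjusted p = 0.338), and Stag2 one of -0.20 (adjusted p = 0.697). For Smc1a every Atp7b-/- library was below every wild type one, by as little as 81 against 85.3 CPM. Its unadjusted p in edgeR was 0.039. Rad21 overlapped between genotypes, at an unadjusted p of 0.048. The one that rose was Stag3, a subunit of meiotic cohesin, from 0.271 ± 0.162 to 3.12 ± 1.9 CPM (adjusted p = 0.0106, log2 3.47 with an SE of 0.54). Leaving out wild type replicate 1 or Atp7b-/- replicate 3 ended that call, with an adjusted p of up to 0.159. The median of the 6 was -0.04. In the third SMC complex, SMC5/6, which acts in DNA repair, none of 6 genes was called by edgeR, DESeq2 or limma-voom, and none had an unadjusted p under 0.05. Its log2 fold changes ran from -0.27 for Nsmce3 (adjusted p = 0.577) and -0.25 for Nsmce4a (adjusted p = 0.693) to 0.26 for Nsmce1 (adjusted p = 0.669) and 0.27 for Nsmce2 (adjusted p = 0.756), with a median of -0.06.

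Among the factors that load, lock, protect and cut cohesin, 6 of 13 rose and 7 did not pass (median 0.72). The cleaving protease separase (Espl1) and its inhibitor securin (Pttg1) were both higher. Pttg1 was 1.6, 1.02 and 0.741 CPM in wild type and 10, 10.1 and 14.3 CPM in Atp7b-/- livers (log2 3.32, adjusted p = 0.000951), and Espl1 rose from 0.503 ± 0.208 to 6.47 ± 1.43 CPM (log2 3.72, adjusted p = 0.00144). Cdca5, the sororin that locks cohesin in place, rose by 4.44 on the log2 scale (adjusted p = 0.0028). The cohesin acetyltransferase gene Esco2 had 48, 0 and 0 counts in wild type and 163, 47 and 882 counts in Atp7b-/- livers (log2 4.72, adjusted p = 0.0103). These 4 genes kept their calls when any 1 library was left out. The size for Esco2 rests on the paired-end pair: its fitted log2 fold change was 9.84 without wild type replicate 1 and 9.69 without Atp7b-/- replicate 3, where the single-end wild type libraries at 0 make it depend on the prior count. The other two that rose were Sgo2a (log2 4.64) and Sgo1 (log2 4.05), which protect centromeric cohesin. Both were at 0 in the single-end wild type libraries, and neither was called without wild type replicate 1 or without Atp7b-/- replicate 3. The adjusted p of Sgo2a was then 0.136 and 0.194. That of Sgo1 was 0.133 without wild type replicate 1, and it was under the filter, so not tested, without Atp7b-/- replicate 1 or 3.

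Of the kinases and regulators of condensin, 4 of 8 tested rose and 4 did not pass (median 1.16). The cyclin gene Ccnb2 was among those that did not pass (log2 -0.29, adjusted p = 0.89), and its groups overlapped. Cdk1, the mitotic kinase that phosphorylates condensin subunits, was 1.05, 0.765 and 0.185 CPM in wild type and 13.6, 13.1 and 11.2 CPM in Atp7b-/- livers (log2 4.03, SE 0.41, adjusted p = 0.00139). Mcph1, which restrains condensin II, was 5.99, 3.99 and 3.15 CPM in wild type and 13.1, 16.6 and 21.6 CPM in Atp7b-/- livers. It rose 3.89-fold (log2 1.96, SE 0.25, adjusted p = 0.00371), and both genes kept their calls when any 1 library was left out. The kinase genes Plk1 (log2 2.71, adjusted p = 0.0179) and Aurkb (log2 2.65, adjusted p = 0.0331) were also called, but lost their calls in 3 and 5 of the 6 leave-outs (adjusted p up to 0.119 and 0.2).

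Of 10 other proteins of chromosome structure, 4 rose and 6 did not pass (median 0.72). Mki67 was among those that did not pass (log2 0.84, adjusted p = 0.594). It had 3.6, 2.1 and 1.7 CPM in wild type and 1.1, 7 and 5.6 CPM in Atp7b-/- livers, and these groups overlapped. Top2a, the topoisomerase that shares the axis of mitotic chromosomes with condensin, rose 6.29-fold, from 1.68 ± 1.2 to 9.87 ± 5.19 CPM (adjusted p = 0.007, log2 2.65 with an SE of 0.37). The chromokinesin genes Kif4 (log2 3.19, adjusted p = 0.00548) and Kif22 (log2 2.71, adjusted p = 0.012) and the spindle gene Nusap1 (log2 2.94, adjusted p = 0.02) rose as well. For Nusap1 the wild type values were 1.6, 0.255 and 0 CPM, and the log2 fold change was 3.71 without wild type replicate 1 and 3.72 without Atp7b-/- replicate 3. Each of the 4 calls ended when wild type replicate 1 or Atp7b-/- replicate 3 was left out, with adjusted p of up to 0.135.

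**Figure D5:**
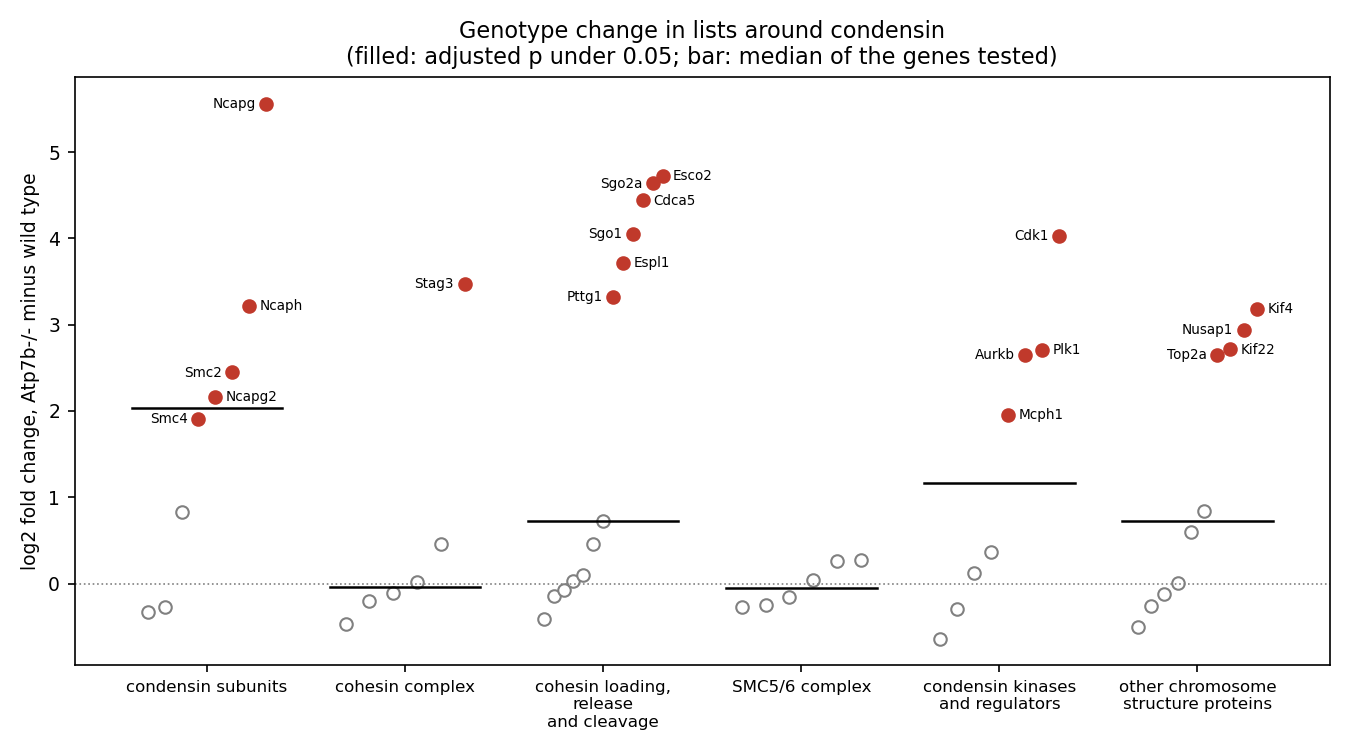
Log2 fold change (vertical axis, Atp7b-/- minus wild type) of each tested gene in the condensin list and 5 lists around it; filled circles passed an adjusted p of 0.05 and carry their symbols, open circles did not, and bars are medians. The medians are 2.04 for condensin, -0.04 for cohesin and -0.06 for SMC5/6.

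The patterns most like those of the shared subunits were sought among 11320 genes, the subunits aside, by the root mean square difference of mean-centred log2 CPM over the 6 libraries. For Smc2 the closest genes other than subunits were the centriole assembly gene Sass6 (0.204), Ccdc15 (0.255), the RNase P subunit gene Rpp40 (0.283), the cytokinesis gene Prc1 (0.319) and Fam72a (0.345), where the median over all genes was 1.39. For Smc4 such genes were Lin9 (0.226), which encodes a MuvB subunit, the glutathione transferase gene Gsta2 (0.245), the centromere gene Cenpp (0.254), the cyclin G gene Ccng1 (0.256) and Fam72a (0.272), with a median of 1.3. Sass6 had 2.38, 1.36 and 1.3 CPM in wild type and 5.13, 4.63 and 14.6 CPM in Atp7b-/- livers, with the same high paired-end library in each genotype as Smc2. Among the subunits themselves, Smc2 was nearest to Ncapg2 (0.311), Smc4 (0.411) and Ncaph (0.443), and farthest from Ncaph2 (1.52). Between these lay Ncapd2 (1.08), Ncapg (1.31) and Ncapd3 (1.38), so Ncapg was called higher without being close to Smc2. From Smc4, Ncapg was the farthest subunit (1.549), beyond Ncaph2 (1.435), and Ncaph stood at 0.799.

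Markers of the cell types a liver sample can hold were read beside these results. The hepatocyte markers Alb, Apoa1, Ttr, Cyp2e1, Cps1 and Asgr1 were abundant, with a summed level of 77800 to 101300 CPM in wild type and 50040 to 64490 CPM in Atp7b-/- libraries, and none of the 6 was called. That sum did not overlap between genotypes, but each of the 6 markers did when taken alone. Alb was the largest part of the sum in every library. The log2 fold changes ran from -0.72 for Alb (adjusted p = 0.256 in edgeR) to 0.05 for Asgr1, with a median of -0.40. The part of hepatocytes in the subunit results was not tested. No marker of Kupffer cells (6 tested), endothelium (6), stellate cells (6), biliary epithelium (5) or lymphocytes (1) was called by edgeR either, and their sums overlapped between genotypes: 157 to 341 against 173 to 260 CPM for Kupffer cells and 6.67 to 14.9 against 6.45 to 17.9 CPM for lymphocytes. The endothelial sums were 162 to 440 against 145 to 305 CPM, the stellate sums 202 to 388 against 268 to 329 CPM and the biliary sums 22 to 51.3 against 29.4 to 77.9 CPM. The biliary marker Sox9, a transcription factor gene, stood at 1.28, 5.44 and 6.3 CPM in wild type and at 12.8, 8.84 and 6.51 CPM in Atp7b-/- livers. Its groups did not overlap, and it missed the threshold in edgeR (log2 1.37, SE 0.36, adjusted p = 0.104) and in limma-voom (adjusted p = 0.0937) but passed in DESeq2 (adjusted p = 0.0257) and in edgeR with no filter on low counts (adjusted p = 0.00163). Spp1, which overlapped between genotypes, passed only with no filter (adjusted p = 0.00399) among the alternatives run. Epcam had 0.64, 0.68 and 0.371 CPM in wild type and 0.933, 0.7 and 1.24 CPM in Atp7b-/- livers. Its groups did not overlap (log2 0.74, adjusted p = 0.568 in edgeR), but it passed the filter through Atp7b-/- libraries alone. Krt19 and Krt7 overlapped, at log2 fold changes of -0.002 and -0.30. The median of the 5 biliary markers tested was 0.74. The part of biliary cells in the subunit results was not tested. Erythroid precursors, which divide, were read from 5 markers with summed levels of 28.7 to 231 CPM in wild type and 194 to 334 CPM in Atp7b-/- libraries, none of the 4 tested being called. The gene of the red cell anion exchanger, Slc4a1, had 0, 0.17 and 0.185 CPM in wild type and 0.466, 0.281 and 0.517 CPM in Atp7b-/- livers. Its groups did not overlap, but it was under the filter and so not tested. Alas2, most of the sum in 5 of the 6 libraries, had 191, 12.4 and 94.9 against 243.5, 184 and 281 CPM (log2 1.525, adjusted p = 0.518 in edgeR). The erythroid factor gene Klf1 was at most 1.92 CPM (log2 0.12). Alas2, Klf1, Epor (log2 -0.38) and Tfrc (log2 -0.15) overlapped between genotypes. The part of erythroid precursors in the subunit results was not tested.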

How the data were processed

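The authors deposited raw counts per Ensembl gene in 1 table with a column for each library, and no column was left unmapped. The submitters' processing notes name STAR 2.4, featureCounts, edgeR 3.8 and the build GRCm38. The sources used here do not give the strand setting, the handling of read pairs or the annotation release, so overlapping genes are uncertain. Symbols, coordinates and exon lengths came from GENCODE M21 (GRCm38), and 40340 of 41388 identifiers matched. The test was edgeR 4.0.16 (R 4.3.3) on these counts: TMM, the edgeR filter with a minimum count of 10 (0.693 CPM in 3 libraries), a robust quasi-likelihood fit with terms for layout and genotype, and Benjamini-Hochberg adjustment over 12988 genes. SE is the absolute log2 fold change over the square root of F, and intervals are 95%. DESeq2 1.42.0, limma 3.58.1 (voom), DESeq2 size factors, no filter, other covariates and left-out libraries were alternatives. Named genes are the 8 subunits, up to 4 genes of smallest p per list and the 5 nearest patterns to Smc2 and to Smc4. Sgo1, Sgo2a, Mki67, Ccnb2, Lcorl, Tymp, Sco2, Xist, Ddx3y, Sox9, Spp1, Epcam, Krt19 and Krt7 were added after their values were seen. One marker of a cell type list is not reported here. The members and lists were chosen with earlier results of these data known. Replicate numbers follow deposition order. No source used here states how many animals the libraries of a genotype represent. Wild type replicates 1 and 2 differed in labelled sex, in Xist (1.01 and 371 CPM) and in Ddx3y (161 and 0.34 CPM). They were therefore not repeats of the same RNA sample. The Atp7b-/- libraries also differed in labelled sex, but all were low in Xist. The p-values measure the spread between libraries, which may be technical where libraries share a source. Promoters came from RefSeq (GRCm38.p6).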

Additional observations from a re-analysis of the deposited data

How the results depend on the processing

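The 5 calls among the subunits held with DESeq2 size factors, without the filter, without robust dispersion, with DESeq2 and with limma-voom, and 4 to 5 subunits were called when 1 library was left out. When layout was dropped from the fit, or exchanged for labelled sex, edgeR called 0 subunits, 0 genes of the lists around them and 0 genes in all. In these 2 fits 545 and 381 genes, and 5 and 4 subunits, had an unadjusted p under 0.05. No log2 fold change of a subunit changed sign under any alternative run. The number of genes called, 323, was 1116 without the filter, 770 with DESeq2, 126 in the single-end libraries alone and 119 to 323 when 1 library was left out (119 on leaving out Atp7b-/- replicate 3, 131 on leaving out wild type replicate 1 and 208 on leaving out Atp7b-/- replicate 1). That of the list genes, 15, was 6 in the single-end libraries alone and 6 to 15 when 1 library was left out. With the longest transcript as length, the mean condensin I share was 8.5% in wild type and 32.5% in Atp7b-/- libraries, against 7.91% and 29.8%. The cause of these differences was not tested. No paired analysis was possible because the labels give no replicate numbers that groups share. With 10 wild type counts, depth limits the size of the Ncapg change.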
